A study of Mus musculus with 4 samples.

Results

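The subject is a set of 10 genes of lysosomal proteolysis and autophagy in the livers of fetal and maternal mice after food deprivation. The members are 6 cathepsins (Ctsa, Ctsb, Ctsd, Ctsh, Ctsl and Ctsz) and 4 autophagy genes (Bnip3, Map1lc3b, Gabarapl1 and Sqstm1). They were taken by name from the gene probes of 4 two-colour Agilent arrays, through the gene name in the files or the gene that the probe's accession names. All 10 were found, on 17 of 41174 gene probes (11 for cathepsins and 6 for autophagy genes), among 28786 gene names in all. Liver RNA of C57BL/6J mice, an inbred strain, was measured in 4 groups: control fetuses, fetuses labelled as food-deprived (FD), control mothers and food-deprived mothers. The control label carries no further agent, and the growth protocol of all samples names CE-2 chow and tap water without restriction. Per the series' design text, liver RNA of 5 to 10 biological replicates was pooled for each condition and then hybridised with the dyes swapped, with 2 arrays per comparison. The titles number the pooled samples 1 and 2, in step with the dye orientation, so the sources do not settle whether both arrays of a comparison hold the same pools. How long food was withheld, the day of gestation and the fetal sexes are not given in these sources.

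Cathepsins are proteases of the lysosome, the acidic compartment in which cells digest proteins. In autophagy a membrane closes around cytoplasm or an organelle, and the vesicle fuses with a lysosome, where cathepsins break down its content. Proteins of the ATG8 family, such as those encoded by Map1lc3b and Gabarapl1, are bound to the growing membrane, and receptors such as those encoded by Sqstm1 and Bnip3 tie cargo to them. The liver is known for high autophagy during fasting, which releases amino acids and lipids. The comparisons ask how the transcripts of both arms of this route differed between food-deprived and control liver in the fetus and in the mother, and how their control levels differed between both.

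Unless a level is named, each value is the log2 of food-deprived over control liver, given for the first array (food-deprived RNA in Cy5) and the second array (dyes swapped). The arrays of a comparison were read as one set of pools and taken as 1 replicate, so no test was made. On that reading the gap between them is technical, and with separate pools it would also hold differences between pools. The call rule asks for a 2-fold mean change and for no less than 1.5-fold on either array, in the same direction, and "rose" and "fell" are kept for genes that meet it. The SD per array, from the difference between the arrays over all measured genes, was 0.15 for the fetal and 0.16 for the maternal arrays. The share of spots well above background ran from 53.2% to 69.7% over arrays and dyes, none was saturated, and the member probes used below were well above background in all 8 channels, except the Ctsd probe used in the mother, which had an outlier spot on 1 fetal array and was above background in the other 6. Counted with the sign of the swapped array unturned, which picks out dye effects, 0 genes passed the rule in the fetus and 0 in the mother.

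In the maternal liver Ctsl, the gene of the cysteine endopeptidase cathepsin L, rose 2.91-fold, and Bnip3, the gene of a receptor on the outer mitochondrial membrane that marks mitochondria for autophagy, rose 2.09-fold. The other 8 members did not pass the rule, and none fell. The call covered 3.43% of the 16141 genes measured in the mother (1.55% higher and 1.88% lower). The higher ones made up 45.1% of these calls, or 34.9% with each array centred on its median in place of loess, a setting in which no member was called in the mother. The probes that carry these calls are shown by their first 30 bases, in lower case because no part was singled out. The Ctsl probe lies on the minus strand at chr13:62192273-62192332 and the Bnip3 probe on the minus strand at chr7:135295711-135295770 (mm7, per the file headers).
Ctsl: accaaacccttattgagtcaaaccatggta
Bnip3: aaattaaagggtgcgtgcgggttatctgta

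The normalised log2 level of Ctsl was 14.00 and 14.31 in control mothers and 15.57 and 15.83 in food-deprived mothers. The ratios were 1.57 and 1.51, closer to each other than the SD per array. In order of the mean change Ctsl stood 83rd from the top of the measured maternal genes. Bnip3 had a log2 level of 12.67 and 12.91 in control mothers and of 13.83 and 13.87 in food-deprived mothers. Its ratios of 1.17 and 0.96 put it close to the 2-fold limit, and without the first array it did not pass.

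The other maternal cathepsins did not share the rise of Ctsl. Ctsb, the gene of cathepsin B, a cysteine protease that also trims dipeptides from the carboxyl end, gave -0.52 and -0.74, a mean 1.55-fold below control that missed the 2-fold rule. Its log2 level was 14.17 and 14.35 in control mothers and 13.64 and 13.61 in food-deprived mothers. Its dimmer probe, at a mean log2 intensity of 7.71 against 13.91, gave only -0.14 and -0.09. Whether its dimness reduced the ratios was not tested. Ctsz, the gene of the carboxypeptidase cathepsin Z, gave 0.37 and 0.25. Ctsh, the gene of the aminopeptidase cathepsin H, gave -0.18 and -0.051, within the SD per array of 0 on the mean. Ctsa, the gene of the carboxypeptidase that also protects lysosomal beta-galactosidase and neuraminidase, gave -0.095 and 0.32, and Ctsd, the gene of the aspartic protease cathepsin D, gave -0.23 and 0.48. The arrays of these last genes disagreed in sign, so no direction could be read for them.

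Among the maternal autophagy genes, Map1lc3b, which encodes LC3B, an ATG8 protein of the autophagosome membrane, gave 0.67 and 0.47 on its brighter probe. That is a mean of 1.49-fold, below the rule. Its other probe gave 0.98 and 1.13, a mean of 1.05 that would have passed. Both Map1lc3b probes had food-deprived levels above the control levels on both arrays. The brighter probe gave 12.76 and 12.83 in control mothers and 13.44 and 13.30 in food-deprived mothers. The other gave 11.81 and 11.70 in control mothers and 12.79 and 12.83 in food-deprived mothers. The probes are printed by their first 30 bases because the call turns on which one is read. Both lie on the plus strand of chromosome 8 (mm7), the brighter at 120240270 to 120240329 and the other at 120238422 to 120238481.
Map1lc3b, brighter probe: cactgctctgtcttgtgtaggttgtatacg
Map1lc3b, other probe: cgtcctggacaagaccaagttcctggtgcc

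Sqstm1, the gene of the ubiquitin-binding receptor p62, gave 0.45 and 0.51 in the mother, 1.40-fold on the mean. Its log2 level was 14.30 and 14.10 in control mothers and 14.75 and 14.61 in food-deprived mothers. Gabarapl1, the gene of another ATG8 protein, gave 0.32 and -0.23, so its arrays disagreed, and its second probe gave -0.058 and 0.095.

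**Figure D1:**
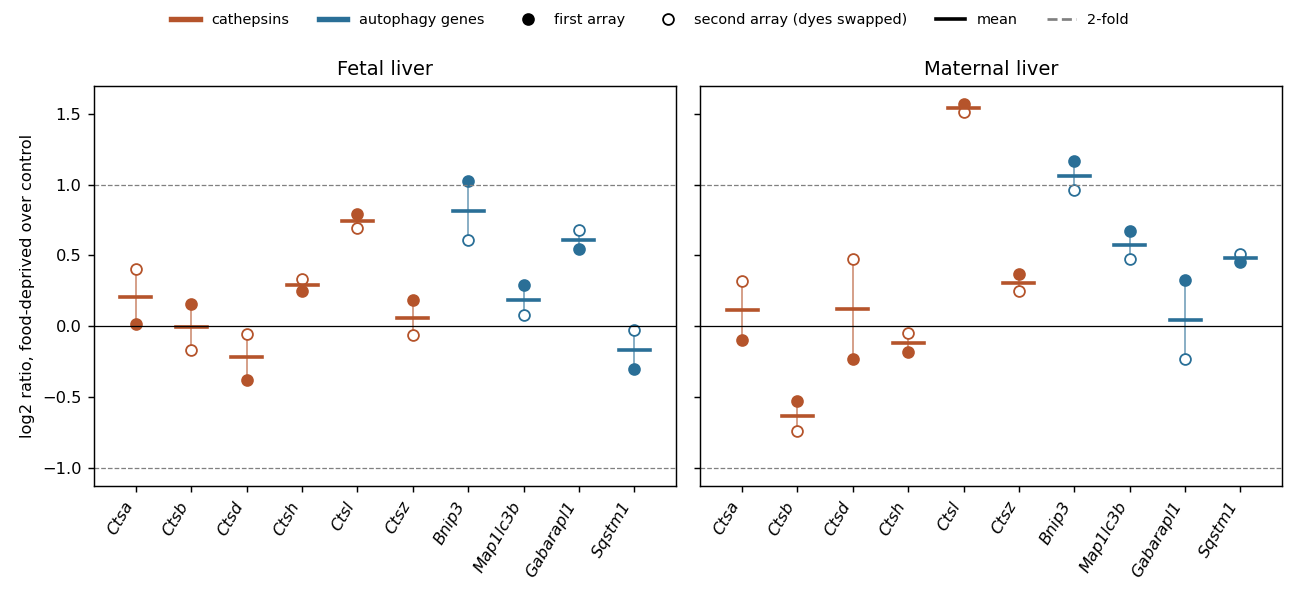
Log2 ratio of food-deprived over control liver for the 10 members in the fetus (left) and the mother (right). Filled and open circles are the first and the second array, horizontal bars their mean, and dashed lines mark 2-fold; Ctsl and Bnip3 have means above the 2-fold line in the mother, and in the fetus no mean reaches it.

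In the fetal liver no member passed the rule, which called 0.731% of 18051 measured genes (0.471% higher and 0.26% lower). Of the called fetal genes 64.4% were higher, against 75.8% with median centring. The members with the largest mean changes were Bnip3, Ctsl and Gabarapl1, all above control on both arrays. Bnip3 gave 1.02 and 0.61 in the fetus, a mean of 1.76-fold, and with the first array alone it would have passed. Its fetal log2 level was 13.20 and 13.37 in control liver and 14.22 and 13.98 in food-deprived liver.

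Ctsl gave 0.79 and 0.69 in the fetus, 1.67-fold on the mean. Its log2 level was 14.07 and 14.51 in control fetuses and 14.86 and 15.20 in food-deprived fetuses. Each array's step exceeded the SD per array. Gabarapl1 gave 0.54 and 0.68, 1.53-fold on the mean, with log2 levels of 13.59 and 13.58 in control and 14.14 and 14.26 in food-deprived fetuses. The second Gabarapl1 probe, at a mean log2 intensity of 9.59 against 14.66, gave only 0.23 and 0.18. These 3 genes had a mean of at least 1.5-fold with the same direction on both arrays, a looser criterion that 2.71% of the fetal genes met. In the mother Ctsl and Bnip3 met it above control and Ctsb below control, against 9.96% of the maternal genes.

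The remaining fetal members stayed closer to 0. Ctsh gave 0.25 and 0.33 and Map1lc3b 0.29 and 0.081. Ctsa gave 0.013 and 0.41, a gap wider than its mean of 0.21. Ctsd gave -0.38 and -0.056 and Sqstm1 -0.30 and -0.029, and the mean of Sqstm1 turned to 0.096 with median centring. Ctsd was read here from its dimmer probe, unlike in the mother. Its brighter probe gave -0.54 on the first fetal array, and with outlier spots kept the fetal mean of Ctsd was -0.42. The fetal arrays disagreed in sign for Ctsb (0.16 and -0.17) and Ctsz (0.19 and -0.063).

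**Figure D2:**
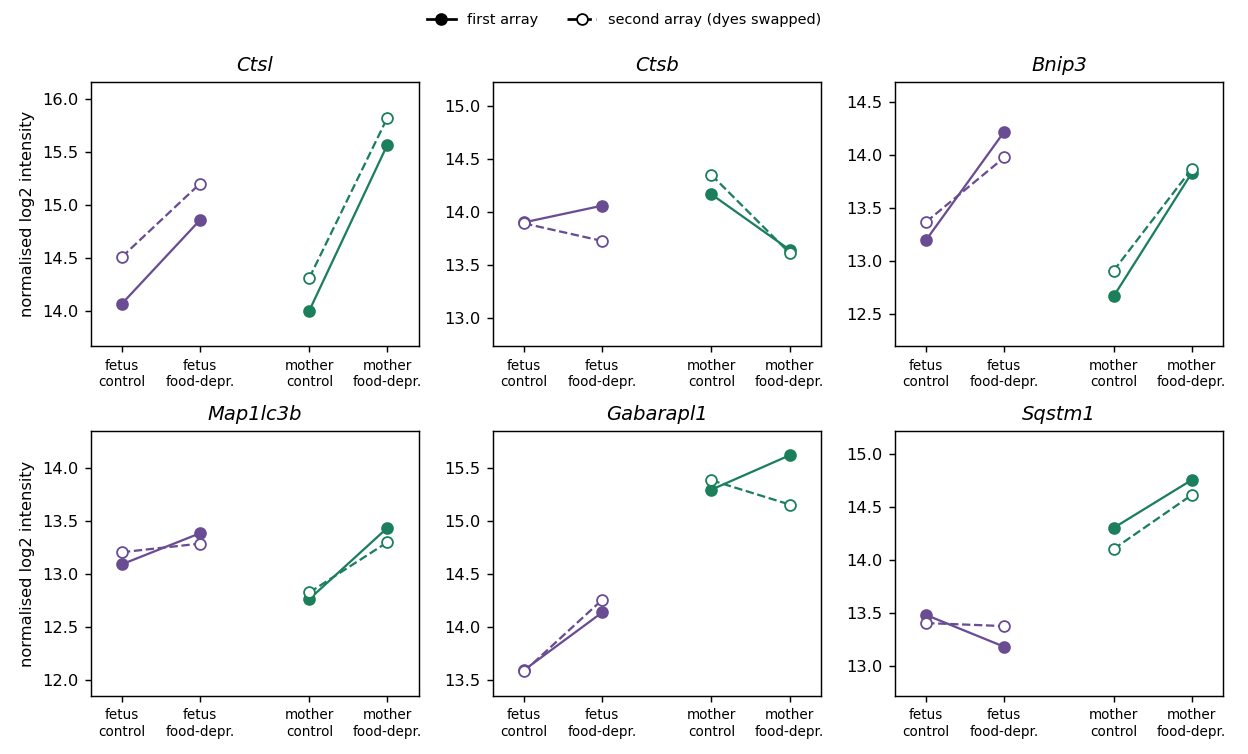
Normalised log2 intensity of 6 members in control and food-deprived liver, with lines joining the channels of 1 array (solid, first array; dashed, second array) for the fetus (violet) and the mother (green). Each panel spans the same height but has its own range; Ctsl and Bnip3 go up on all arrays, Ctsb goes down on both arrays only in the mother, and Gabarapl1 lies higher in the mother than in the fetus in all channels.

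Set beside each other, the 4 autophagy members had higher medians than the 6 cathepsin members in both livers. The median of the mean log2 ratios was 0.53 for the 4 autophagy genes and 0.12 for the 6 cathepsins in the mother, and 0.40 and 0.14 in the fetus, while the median of all measured genes was -0.0085 in the mother and 0.0042 in the fetus. The cathepsins spread widely, from -0.63 to 1.54 in the mother and from -0.22 to 0.74 in the fetus. The maternal autophagy genes ran from 0.048 to 1.06 and the fetal ones from -0.16 to 0.82, so the ranges of both classes overlapped. The maternal cathepsin median also depended on the array, with -0.14 on the first and 0.28 on the second, whereas the autophagy median was 0.56 and 0.49. With the mean over probes the fetal medians were 0.31 for the autophagy members and 0.14 for the cathepsin members. Wider lists, described further below, did not keep this order in the fetus. Their fetal medians were 0.23 for other cathepsins, 0.10 for ATG8 and conjugation genes, 0.10 for initiation and membrane growth and 0.17 for receptors. In the mother they were -0.077, 0.027, 0.062 and 0.46. Beside the fetal values, all 7 erythroid markers had a mean below 0 in the food-deprived fetus (median -0.28, none called). The arrays disagreed in sign for Hba-a1 (0.18 and -0.75) and Alas2 (-0.11 and 0.024). With the scanner software's log ratio the median of the 7 markers was -0.35 and all their means lay below 0. With median centring, under which 503 fetal genes followed the dye, the markers had a median of 0.017. The log2 of their summed level was 17.05 and 17.09 in control and 17.04 and 16.65 in food-deprived fetuses, and their part in the fetal medians was not tested. In bulk liver fewer cells of a type and less RNA per cell cannot be told apart.

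No member differed between the maternal and the fetal response past the rule, which called 2.98% of the 15590 genes measured in both. Of these calls 40.9% were higher in the mother, against 16.1% with median centring. Taken on arrays of equal dye orientation, the maternal minus fetal difference was 0.78 and 0.82 for Ctsl, 0.75 and 0.54 for Sqstm1, and -0.68 and -0.57 for Ctsb. These 3 met the looser 1.5-fold criterion, as did 9.78% of all genes. Gabarapl1 leaned the other way, with -0.22 and -0.91, but its arrays were far apart. For Bnip3 the difference was 0.14 and 0.35 (mean 0.25), and with median centring its mean was -0.11. That setting also turned Ctsz to -0.078 and lowered the means of Ctsl from 0.80 to 0.39 and of Sqstm1 from 0.65 to 0.29. It moved every member mean down, so negative differences grew. Ctsb went from -0.63 to -1.01, Gabarapl1 from -0.56 to -0.94 and Ctsh from -0.41 to -0.78. The difference for Map1lc3b was 0.38 and 0.39, for Ctsh -0.43 and -0.38, for Ctsd 0.36 and 0.33, for Ctsz 0.18 and 0.31, and for Ctsa -0.11 and -0.087.

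In control liver Gabarapl1 and Ctsz were higher in the mother than in the fetus. Gabarapl1 was 3.38-fold higher, with level differences of 1.70 and 1.81, and Ctsz 2.55-fold higher, with 1.47 and 1.24. The rule called 19.4% of the 18081 genes compared (9.22% higher and 10.1% lower in the mother). The control log2 level of Gabarapl1 was 15.30 and 15.38 in mothers against 13.59 and 13.58 in fetuses, and that of Ctsz was 13.54 and 13.53 against 12.08 and 12.29. The second probes of both genes gave mean differences of 2.33 for Gabarapl1 and 1.39 for Ctsz, so the probes agreed in direction and in call. These comparisons share the control channels with the responses above.

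**Figure D3:**
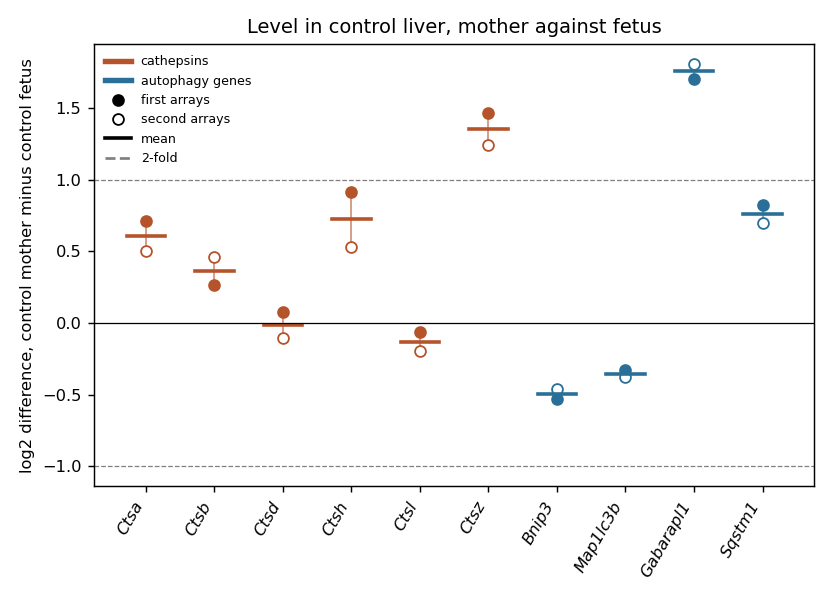
Log2 difference in level of control maternal over control fetal liver for the 10 members, each probe against itself on arrays of equal dye orientation. Circles are the 2 pairs of arrays, bars their mean and dashed lines 2-fold; Gabarapl1 and Ctsz lie above the upper line and Bnip3, at a mean of -0.50, and Map1lc3b lie lowest on the probes plotted.

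The order of the level differences went on with Sqstm1 (0.82 and 0.70), Ctsh (0.92 and 0.53) and Ctsa (0.71 and 0.50), which all lay above 0 and overlapped one another. With Gabarapl1 and Ctsz they made up the 5 members past the looser 1.5-fold criterion, which 35.8% of the genes met. Ctsb followed with 0.26 and 0.46, below the array values of Ctsa. Ctsd (0.075 and -0.11) and Ctsl (-0.064 and -0.20) overlapped around 0. Map1lc3b (-0.33 and -0.38) and Bnip3 (-0.53 and -0.46) were lowest on their brightest probes. Their order depends on the probe, since the other Map1lc3b probe gave -0.68 and -0.72, and the mean over probes put Map1lc3b at -0.53. The processing decided the sign for the last 4 genes. The scanner software's processed signal, scaled to the 75th percentile, took the place of the correction and normalisation used here. It put Ctsd at 0.22, Ctsl at 0.61, Map1lc3b at 0.29 and Bnip3 at 0.12. The median of all genes moved from 0.027 to 0.15, by less than any of these 4 genes.

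Fetal liver is a blood-forming organ, and the markers of blood cell precursors moved with the control level comparison. All 7 erythroid and all 5 measured granulocyte markers were called lower in the control mother, against 10.1% of all genes. A gene entered this comparison if its control channels were well above background on both arrays of either liver. For a marker that entered only through the fetus, a lower maternal level was thus set by the filter. For the responses, 5 of the erythroid and 3 of the granulocyte markers were measured in both livers. The log2 of the summed level of the erythroid markers was 13.76 and 13.61 in control mothers, below the fetal values above, and that of the granulocyte markers was 16.22 and 16.11 in control fetuses against 10.44 and 10.41 in control mothers. For 4 measured hepatocyte markers it was 16.40 and 16.82 in control fetuses and 16.36 and 16.84 in control mothers. Such a sum mostly follows the brightest transcripts. Taken singly, the 4 had a median difference of -0.0088, and 1 was called higher in the mother (mean 1.40). With the 75th percentile scaling all 4 lay above 0, with a median of 0.85. The part of the cell mixture in the member levels was not tested.

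The ATG8 genes have related sequences, and the dimmer Gabarapl1 probe is the member probe that most resembles a probe of another family gene. It matches a Gabarap probe at 43 of 55 overlapping bases (78.2%). Both are shown with the matching bases in capitals. In the genome (mm7, plus strand) the Gabarapl1 probe spans chr6:129561989-129564461, which is longer than its 60 bases.
Gabarapl1: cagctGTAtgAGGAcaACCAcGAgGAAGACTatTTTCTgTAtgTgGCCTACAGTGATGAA
Gabarap: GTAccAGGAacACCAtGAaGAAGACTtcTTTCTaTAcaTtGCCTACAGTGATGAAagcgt

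Promoter sequence was given for 8 of the 10 members in the RefSeq table of build GRCm38.p6, with 9 start sites, and the 250 bases before each start were searched on both strands. The searched letters were CACGTG, the core bound by many helix-loop-helix factors including TFEB, a regulator of lysosomal genes; TCACGTGA, the longer form of that core that contains it; and GTAAACA, bound by forkhead factors. CACGTG was found before 4 of the 9 start sites (Ctsa, Ctsd, Ctsl and Bnip3), against 6.02% of 32851 promoters. TCACGTGA was found for Ctsa and Ctsd, against 0.785% of promoters, and GTAAACA for none, against 3.17%. Ctsl and Bnip3, the members that rose in the mother, thus share the shorter letters, as do Ctsa and Ctsd, which were not called. The matches stand in capitals below, starting 236 bases before the start for Ctsl, 108 for Bnip3, 99 for the longer match of Ctsd and 13 for that of Ctsa. The windows are chr13:64370521-64370770 for Ctsl, chr7:138909507-138909756 for Bnip3 and chr7:142387828-142388077 for Ctsd, all on the minus strand, and chr2:164833523-164833772 on the plus strand for Ctsa.
Ctsl: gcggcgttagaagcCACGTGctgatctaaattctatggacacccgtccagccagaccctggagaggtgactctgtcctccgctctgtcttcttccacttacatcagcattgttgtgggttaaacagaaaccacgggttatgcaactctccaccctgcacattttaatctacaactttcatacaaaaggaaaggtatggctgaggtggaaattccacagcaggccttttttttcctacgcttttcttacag
Bnip3: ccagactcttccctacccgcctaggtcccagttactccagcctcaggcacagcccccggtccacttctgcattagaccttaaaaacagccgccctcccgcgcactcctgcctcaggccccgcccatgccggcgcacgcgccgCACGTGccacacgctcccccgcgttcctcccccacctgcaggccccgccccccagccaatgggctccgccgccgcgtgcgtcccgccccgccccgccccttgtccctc
Ctsd: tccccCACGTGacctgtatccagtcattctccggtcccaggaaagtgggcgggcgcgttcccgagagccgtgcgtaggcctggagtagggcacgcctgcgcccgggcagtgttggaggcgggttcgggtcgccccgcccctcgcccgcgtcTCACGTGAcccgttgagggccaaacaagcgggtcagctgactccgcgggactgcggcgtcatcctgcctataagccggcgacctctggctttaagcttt
Ctsa: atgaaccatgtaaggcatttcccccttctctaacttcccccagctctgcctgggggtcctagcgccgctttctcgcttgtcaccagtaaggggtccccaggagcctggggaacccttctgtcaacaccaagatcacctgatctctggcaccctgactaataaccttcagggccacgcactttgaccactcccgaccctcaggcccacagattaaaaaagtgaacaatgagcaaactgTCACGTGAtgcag

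Of the other lysosomal genes, none of 40 measured lysosomal hydrolases was called in the fetus (median 0.083, against 0.731% of all genes called) and none of 39 in the mother (median -0.090, against 3.43%). The largest maternal changes among them were those of Siae, a sialic acid esterase (-0.80 and -0.90), and Gm2a, the GM2 ganglioside activator (-0.84 and -0.76), both short of the rule. In control liver 12 of the 39 hydrolases were higher in the mother and 1 lower, against 9.22% and 10.1% of all genes, and 19 were higher and 1 lower with the 75th percentile scaling. The largest differences were those of Gm2a (2.05 and 2.12), the hyaluronidase gene Hyal1 (1.86 and 2.05) and the fucosidase gene Fuca1 (1.70 and 2.18). Of the 33 measured genes of the lysosomal membrane and of trafficking to it, none was called in the fetus. In the mother Npc1, which exports cholesterol from the lysosome, rose (1.29 and 1.17), and Slc36a1, a proton-coupled amino acid transporter, fell (-1.32 and -1.10). Npc1 gave 0.70 and 0.46 in the fetus. The vacuolar ATPase, the proton pump that acidifies the lysosome, had no called subunit among 17 in either liver (medians 0.092 in the mother and -0.050 in the fetus, or 0.10 in the fetus with median centring).

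Among the other cathepsins, Ctsc, a dipeptidyl peptidase that activates serine proteases of immune cells, fell in the mother (-1.21 and -1.39). It was the 1 call among 10 measured, against 3.43% of all genes. None of 11 was called in the fetus, where Tinag (-0.54 and -0.48) and Ctso (0.41 and 0.55) had the largest changes. For Ctsc and Ctso, of 9 measured in both livers, the maternal response lay below the fetal one past the rule. The differences were -1.07 and -1.17 for Ctsc and -0.95 and -1.15 for Ctso, and 2.98% of all genes passed. Of the protease inhibitors listed with the cathepsins, Serpina3n rose in the fetus (0.99 and 1.34), which is a secreted serpin of the acute phase and no inhibitor of cysteine cathepsins. It gave 0.77 and 0.86 in the mother.

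Macrophages are rich in lysosomal proteases, and their markers were lower in the food-deprived mother. Of 10 Kupffer cell and macrophage markers 9 lay below 0 in the mother, with a median of -0.56. Against 1.88% of all genes, 3 of them fell: Adgre1 (-1.16 and -1.10), Folr2 (-0.97 and -1.10) and Cd5l (mean -1.03). The log2 of their summed level was 15.00 and 14.99 in control mothers and 14.32 and 14.32 in food-deprived mothers. In the fetus the median was -0.042 and none was called, with summed levels of 15.89 and 15.69 in control and 15.84 and 15.57 in food-deprived liver, although with median centring the fetal median was 0.19. The part of macrophage RNA in the maternal values of Ctsb and Ctsc was not tested. Of the trophoblast markers only Prl3b1 was measured, with 0.13 and -0.026 in the fetus.

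**Figure D4:**
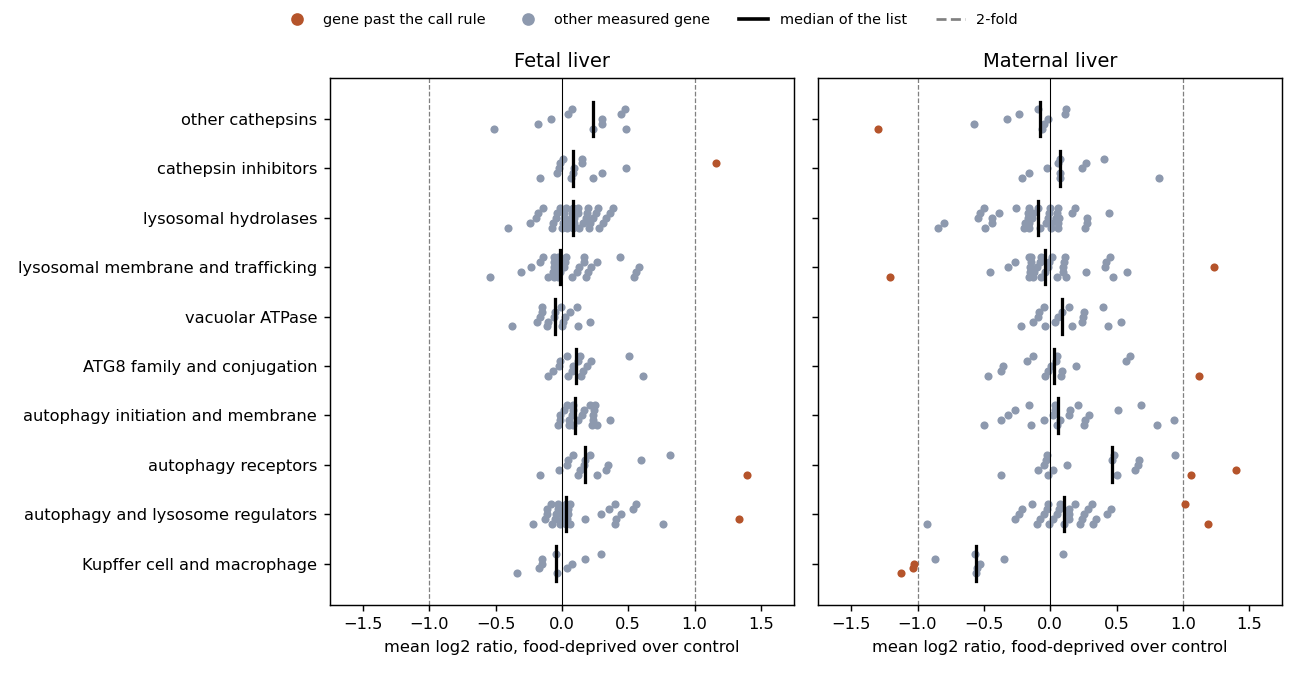
Mean log2 ratio of food-deprived over control liver for each measured gene of 9 lists of lysosome and autophagy genes and of the macrophage marker list, in the fetus (left) and the mother (right). Orange points passed the call rule, black bars are list medians and dashed lines 2-fold; the macrophage markers lie to the left in the mother, and the autophagy receptors have a maternal median of 0.46.

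Autophagy receptors had the highest median of the lysosome and autophagy lists in the mother, 0.46 over 17 measured genes. In this list 2 were called higher and none lower, against 1.55% and 1.88% of all genes. The list includes the members Bnip3, which is 1 of these 2 calls, and Sqstm1. Retreg1, the receptor for autophagy of the endoplasmic reticulum, rose in the mother (1.44 and 1.37) and in the fetus (1.49 and 1.30), where it was the 1 call among 16 receptors (median 0.17). In the list of regulators, Ddit4, an inhibitor of the growth kinase complex mTORC1, rose in both livers, with 1.24 and 1.42 in the fetus and 0.98 and 1.06 in the mother. Sesn2, a nutrient sensor that also restrains mTORC1, rose in the mother (1.17 and 1.20). These were the called genes of 32 regulators in the fetus and 31 in the mother, whose medians were 0.032 and 0.10. Over all genes the rule called 0.731% in the fetus and 3.43% in the mother.

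Of 16 ATG8 and conjugation genes, which include Map1lc3b and Gabarapl1, only Atg16l2 rose in the mother (1.24 and 1.01), against 1.55% of all genes. Its maternal response exceeded the fetal one past the rule (1.19 and 0.99), which called 2.98% of all genes. With median centring no gene of this list exceeded the fetal response past the rule, and 1 lay below it. None of the 16 was called in the fetus, where Gabarapl1 had the largest mean and Atg4c, a protease that processes ATG8 proteins, followed with 0.67 and 0.34. None of 22 genes of initiation and membrane growth was called in either liver. The largest maternal values were those of Wipi1 (0.97 and 0.90), which binds the forming membrane, and Atg2a (0.82 and 0.79), a lipid transfer protein. With median centring none of the lysosome, autophagy and macrophage genes named here was called in the mother.

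The genes whose 4 log2 ratios lay closest to those of the members that rose were sought among 12174 genes with a symbol measured in both livers, by Euclidean distance over the 4 arrays. Nearest to Ctsl were H1f2 (distance 0.118), Fbxo31 (0.211) and Sgk1 (0.236). H1f2, a linker histone gene, gave 0.80 and 0.66 in the fetus and 1.60 and 1.41 in the mother. Nearest to Bnip3 were Fitm2 (0.129), Etfdh (0.225) and Arrdc4 (0.235). Fitm2, which encodes a protein of lipid droplet formation, gave 0.95 and 0.64 in the fetus and 1.12 and 0.87 in the mother. The likeness is a description over 4 arrays and has no test.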

How the data were processed

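Per the file headers, the authors deposited for each spot and dye the linear intensity of the spot and its local background, a processed intensity, and a log10 ratio (red over green) from Agilent Feature Extraction (9.5.1.1 in the headers, 9.5.3.1 in the submitters' processing notes). In R 4.3.3 with limma 3.58.1, intensities were corrected with normexp (offset 50), normalised by loess (control and outlier spots had weight 0), with the swapped arrays' sign reversed. Outlier spots (215 to 257 per array) were left out, so Ctsd was read from its dimmer probe in the fetus and in both comparisons between mother and fetus. Levels came from Aquantile normalisation after loess, and each probe was compared only with itself on arrays of equal dye orientation. For a response, a gene was measured where its control or food-deprived channel was well above background on both arrays. The response difference asked for this in both livers. The control level comparison asked for control channels well above background on both arrays of either liver. The brightest probe stood for each gene. A RefSeq table (GRCm38.p6) named 22951 of the 41174 gene probes by accession, and for 5141 that name was not the one in the files. The number of arrays limits the precision. The members and the 17 gene lists were chosen with earlier results of these data known. Of each list, the genes past the call rule were named, or else those with the largest change. The steps were tested on simulated data in which every changed gene lay well past the 2-fold limit. Calls close to that limit were not tested in this way. Alternatives covered background correction, centring, the software's log ratio, probe choice, filters, outliers, each array alone and the scaling of levels.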

Additional observations from a re-analysis of the deposited data

Results flagged for a closer look

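In 2 members both fetal arrays lay on one side of 0 and both maternal arrays on the other. For Ctsh the maternal minus fetal log2 ratio was -0.41, with fetal values of 0.25 and 0.33 and maternal values of -0.18 and -0.051. For Sqstm1 it was 0.65, with fetal values of -0.30 and -0.029 and maternal values of 0.45 and 0.51. The difference was not tested, and none of these values reached 2-fold. The maternal mean of Ctsh lay within the SD per array of 0. The fetal mean of Sqstm1 turned to 0.096 with median centring, so the opposite signs are weak for both genes.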

How the results depend on the processing

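Ctsl was called in the mother under 10 of 11 alternatives (1.41 to 1.57) and Bnip3 under 9 of 11 (0.96 to 1.17). Each was read from 1 probe that was well above background in all 8 channels. The mean over probes and the filter settings therefore could not change their values. Ctsz and Gabarapl1 were called higher in the control mother under 8 of 8. The count of called maternal members was 0 with median centring, which left the dye in the ratios (3.25 and -0.44 for Ctsl, and 5969 maternal genes that followed the dye). Leaving out an array gave 1 to 2 called maternal members, 0 to 1 fetal members, and a maternal cathepsin median of -0.14 to 0.28. Median centring moved the fetal medians to 0.37 for cathepsins and 0.66 for autophagy genes. With the looser 1.5-fold criterion the called members were 3 in the fetus, 3 for the response difference and 5 for the control level. With signals scaled to the 75th percentile 5 members were higher in the control mother, adding Ctsa (1.14), Ctsh (1.42) and Sqstm1 (1.38), and the cause was not tested. Over all genes, the scanner software's log ratios called 232 higher and 170 lower in the fetus, 657 and 811 in the mother, and 494 and 708 for the response difference. Median centring called 45 and 84 in the mother, and the 75th percentile scaling 3951 and 3542 for the control level. No paired analysis was possible because the replicate number goes with the dye orientation and the arrays of a comparison count as 1 replicate.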
